A study of Rattus norvegicus with 17 samples.

Results

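Cd74 (ENSRNOG00000018735) and RT1-Da (ENSRNOG00000032844) are a pair of MHC class II genes, and their rows were taken by identifier from the deposited table of counts. They are 2 of the 32494 genes listed and 2 of the 15460 that passed the filter on low counts. RNA from the spinal cord was sequenced in 17 rats, with blocks of the C4 to C6, T7 to T9 and L1 to L3 segments of each cord combined in 1 library, so that a value averages over the lesion and the cord far from it. The rats were female Sprague-Dawley of 10 to 12 weeks by the study's methods, although its keywords give Brown Norway, and all had a brainstem electrode placed under isoflurane. The cord was taken with its pia-arachnoid. Group A (4 rats) had a laminectomy as sham injury and sham stimulation, group B (3 rats) had SCI and sham stimulation, and group C (3 rats) had SCI and stimulation. Group D (2 rats) had SCI with stimulation after pimozide at 1 mg/kg, and group E (5 rats) had sham injury with stimulation. SCI was a moderate contusion at segment T8, and stimulation was given to the NRM, a serotonergic nucleus of the lower brainstem, for 2 h on day 3 after surgery, and the cord was taken directly afterwards. The titles and the design text place the rats of group E among the stimulated, whereas their treatment label reads unstimulated. They were analyzed as stimulated.

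MHC class II molecules present peptides from engulfed material to CD4+ T cells. RT1-Da encodes the alpha chain of the rat class II molecule RT1-D, the counterpart of the human HLA-DR alpha chain, and Cd74 encodes the invariant chain, which chaperones newly made alpha-beta dimers, occupies their peptide groove and directs them to endosomes. In the cord the class II genes are expressed by activated microglia, by macrophages of the meninges and blood vessels and by infiltrating monocytes, dendritic cells and B cells, and both genes are known targets of the transactivator CIITA. CIITA acts through factors bound to an X box and a Y box in class II promoters, which is why the promoters of both genes are shown here.

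The sequences are those of RefSeq for the assembly GRCr8, from 250 bases before to 50 bases after the start of the gene in that table. Cd74 lies on chromosome 18 (chr18:56526956-56527255, plus strand) and RT1-Da on chromosome 20 (chr20:4515165-4515464, plus strand). Capitals mark every match, on either strand, of AGNAAC, taken as the core of the X box, and of ATTGG, the Y box, which reads CCAAT on the other strand.
Cd74: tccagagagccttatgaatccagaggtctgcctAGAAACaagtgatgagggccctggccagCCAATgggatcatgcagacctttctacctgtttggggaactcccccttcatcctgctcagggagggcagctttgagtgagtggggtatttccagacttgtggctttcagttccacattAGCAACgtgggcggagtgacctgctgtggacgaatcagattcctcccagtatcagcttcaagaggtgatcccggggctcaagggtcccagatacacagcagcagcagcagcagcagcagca
RT1-Da: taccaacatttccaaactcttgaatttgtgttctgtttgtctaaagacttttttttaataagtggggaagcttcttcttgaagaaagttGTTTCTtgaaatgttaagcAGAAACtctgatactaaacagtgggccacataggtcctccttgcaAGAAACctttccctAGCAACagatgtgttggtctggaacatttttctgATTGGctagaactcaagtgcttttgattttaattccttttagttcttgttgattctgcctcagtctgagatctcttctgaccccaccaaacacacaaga

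In the promoter of RT1-Da, AGNAAC at positions -83 to -78 was followed by ATTGG at -49 to -45, counted in bases before the start. Searched on both strands, AGNAAC followed after 20 to 35 bases on the same strand by ATTGG occurred in 307 of the 33469 promoters of the table, or 0.917%. Cd74 did not hold the motif in this form. Its AGNAAC at -217 to -212 was followed by a Y box in the opposite orientation at -189 to -185. With the Y box in either orientation and a gap of 15 to 35 bases, a form chosen after this promoter had been seen, the pair of boxes occurred in 2.3% of promoters, among them those of both genes. Of the 11 class II genes listed for the pathway, 10 had a promoter in the table, and 6 of these (RT1-Da, RT1-Db1, RT1-Db2, RT1-Ha, RT1-DOa and RT1-DOb) held the first form. Taken alone the letters are common: 48.6% of promoters held AGNAAC and 37.5% held ATTGG. A match of letters is a description of the sequence and not a measurement of binding in these rats.

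Cd74 and RT1-Da differed more between rats that had the same treatment than between the treatments. Over the 17 rats Cd74 ranged from 20.6 to 126 CPM, a 6.12-fold range, and RT1-Da from 5.01 to 62.5 CPM, a 12.5-fold range. CPM is the count of a gene relative to the library's total on genes after TMM scaling, as given by the function cpm of edgeR. Because the transcripts differ in length, the levels of the 2 genes are not compared with each other, only each gene between rats.

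In the intact rats without stimulation, group A, Cd74 was at 84.9 CPM in rat 70, 29.0 in rat 82, 38.8 in rat 83 and 55.8 in rat 84, averaging 52.1 ± 24.5 CPM (SD, n = 4). The intact, stimulated rats of group E had 20.6 CPM in rat 69, 41.3 in rat 85, 27.8 in rat 86, 97.6 in rat 87 and 49.6 in rat 88, averaging 47.4 ± 30.2 CPM (SD, n = 5). Each intact group thus held 1 rat well above the rest, rat 70 and rat 87.

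Among injured rats, group B had Cd74 at 56.5 CPM in rat 91, 110 in rat 94 and 38.6 in rat 95, averaging 68.3 ± 37.0 CPM (SD, n = 3). Group C had 126 CPM in rat 89, 44.4 in rat 90 and 39.1 in rat 93, averaging 69.97 ± 48.9 CPM (SD, n = 3), and group D had 53.8 CPM in rat 75 and 72.7 in rat 76. Rats 89 and 94 were the only injured rats above every intact rat, and 3 of the 9 intact rats were below every injured rat.

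RT1-Da was at 26.7 CPM in rat 70, 9.17 in rat 82, 11.96 in rat 83 and 16.3 in rat 84 of group A, averaging 16.0 ± 7.67 CPM (SD, n = 4). It was in group E at 5.01 CPM in rat 69, 14.2 in rat 85, 8.60 in rat 86, 30.3 in rat 87 and 19.0 in rat 88, averaging 15.4 ± 9.88 CPM (SD, n = 5). The rats that were high in Cd74 in these groups, 70 and 87, were again the highest.

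In group B, RT1-Da was at 23.3 CPM in rat 91, 43.3 in rat 94 and 17.6 in rat 95, averaging 28.1 ± 13.5 CPM (SD, n = 3). Group C held the highest value of the 17 rats, 62.5 CPM in rat 89, beside 14.7 in rat 90 and 10.9 in rat 93, averaging 29.4 ± 28.8 CPM (SD, n = 3). Group D had 19.1 CPM in rat 75 and 35.6 in rat 76. Rats 76, 89 and 94 were above every intact rat and 3 intact rats were below every injured rat, so that the groups overlapped for most rats.

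**Figure D1:**
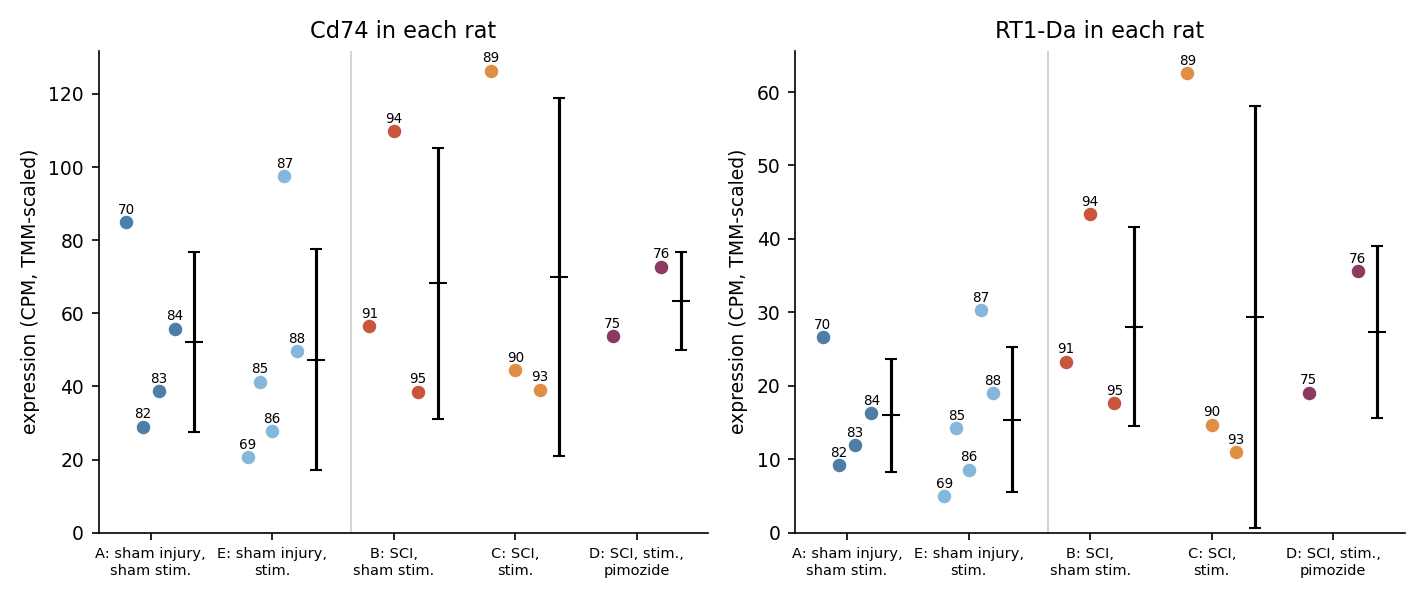
Expression of Cd74 (left) and RT1-Da (right) in each rat, in TMM-scaled CPM on a linear axis, by group, with rat numbers beside the points and the mean and SD in black. In groups A, B, C and E 1 rat (70, 94, 89 and 87) stands above the others of its group in both panels.

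In the order of their means, both genes ran from group C through B, D and A to E. By edgeR's quasi-likelihood test over all 17 rats, with Benjamini-Hochberg adjustment over 15460 genes, no pair of groups passed the threshold in either gene. Between neighbours in the order of mean CPM the adjusted p was 0.999 for C against B, 0.974 for D against B, 0.754 for D against A and 0.961 for E against A for Cd74, and 0.999, 0.99, 0.413 and 0.988 for RT1-Da. The smallest adjusted p among all 10 pairs was that of the extremes, C against E, at 0.395 for Cd74 and 0.213 for RT1-Da.

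The contrasts of injured with intact rats asked whether the contusion changed the level of these genes. In ±SCI(0), the contrast of groups B and A, the log2(FC) was 0.39 (SE 0.51) for Cd74 and 0.82 (SE 0.59) for RT1-Da, with adjusted p of 0.645 and 0.381 by the same edgeR test. In ±st/SCI(0), groups C and A, it was 0.43 (SE 0.51, adjusted p = 0.568 by the edgeR test) for Cd74 and 0.89 (SE 0.59, adjusted p = 0.287) for RT1-Da. In ±SCI(st), groups C and E, it was 0.57 (SE 0.48, adjusted p = 0.395 by the edgeR test) and 0.94 (SE 0.56, adjusted p = 0.213). These contrasts share groups A and C and are not independent of each other.

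With a call at an adjusted p under 0.05 and an absolute log2(FC) above 1, neither gene was called in these contrasts, by edgeR or by DESeq2, and neither had an unadjusted p under 0.05 in the fit of all rats. Of all genes tested, 5.3% were called in the first of these contrasts, ±SCI(0), 7.13% in the second, ±st/SCI(0), and 8.31% in the last, ±SCI(st). Ranked by p in ±SCI(0), 69.96% of genes had a smaller p than Cd74 and 48.5% a smaller p than RT1-Da. The p of RT1-Da in ±SCI(0) was smaller when groups A and B were fitted alone, which also changed the genes kept and the scaling. With groups A and B alone the unadjusted p was 0.0329 (adjusted p = 0.105) in the quasi-likelihood test of edgeR and 0.0128 (adjusted p = 0.075) in its exact test over 22143 genes, where 17% of genes had a smaller p. The 95% intervals were wide. For ±SCI(0) they ran from 0.622-fold to 2.78-fold for Cd74 and from 0.74-fold to 4.22-fold for RT1-Da, so that a 2-fold higher level of either gene after injury lies within them.

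Single rats set the sign of some of these differences. Without rat 94, the log2(FC) of Cd74 in ±SCI(0) was -0.13 in place of 0.39. Without rat 89, Cd74 was at -0.31 and RT1-Da at -0.31 in ±st/SCI(0), and they were at -0.17 and -0.25 in ±SCI(st).

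With the 8 injured rats set against the 9 intact ones, as the mean of groups B, C and D over that of A and E, the log2(FC) was 0.44 (SE 0.33) for Cd74, a 95% interval of 0.836-fold to 2.2-fold, with an adjusted p of 0.291 in the quasi-likelihood test of edgeR. For RT1-Da it was 0.86 (SE 0.38), a 95% interval of 1.03-fold to 3.17-fold, with an unadjusted p of 0.0393 and an adjusted p of 0.0779 by that test. Neither gene was called, against 7.35% of all genes. Across the alternatives that kept all rats the adjusted p of RT1-Da ran from 0.0546 to 0.0979. Group D and rats 69 and 70 bear numbers of a lower series (69 to 76) than the other rats (82 to 95), and with a term for the series the log2(FC) was 0.43 (adjusted p = 0.324) for Cd74 and 0.86 (adjusted p = 0.0937) for RT1-Da by edgeR. With each rat left out, Cd74 ranged from 0.19 (without rat 89) to 0.66 (without rat 87). RT1-Da was called without rat 70 (log2(FC) 1.04, adjusted p = 0.0476 by edgeR) and without rat 87 (1.05, adjusted p = 0.0331), the highest intact rats. Without the injured rat 93 it was at 0.996 (adjusted p = 0.0317, edgeR), just under the limit of fold change for a call. It was at 0.46 (adjusted p = 0.267, edgeR) without rat 89 and at 0.69 without rat 76, which were also injured. In a 2-sided exact permutation test on log2(CPM + 0.1), p was 0.174 for Cd74 and 0.0599 for RT1-Da (0.174 and 0.0899 after Benjamini-Hochberg adjustment over the 3 permutation tests of injured against intact rats). Of the 8 injured rats, 6 were above the intact median in Cd74 and 7 in RT1-Da.

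**Figure D2:**
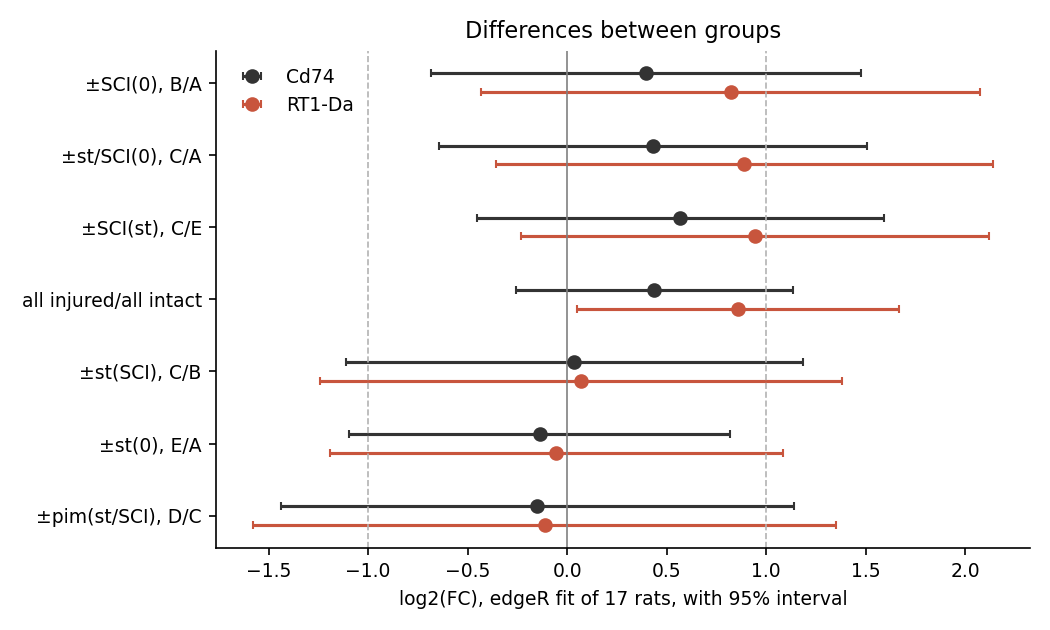
Log2(FC) of Cd74 (black) and RT1-Da (red) in each contrast, with 95% intervals from the edgeR fit of 17 rats. Dashed lines mark the limit of 1 for a call. The interval excludes 0 only for RT1-Da in all injured against all intact rats, from 0.05 to 1.67, where the adjusted p was 0.0779.

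With stimulation or pimozide the mean levels lay close to those without, with intervals that span large changes. In ±st(SCI), groups C and B, the log2(FC) was 0.04 (SE 0.54) for Cd74 and 0.07 (SE 0.62) for RT1-Da, both with an adjusted p of 0.999 in the quasi-likelihood test of edgeR. The 95% intervals ran from 0.462-fold to 2.28-fold and from 0.423-fold to 2.6-fold. Without rat 89 the values were -0.71 and -1.13, and without rat 94 they were 0.56 and 0.52. In ±st(0), groups E and A, Cd74 was at -0.14 (SE 0.45, adjusted p = 0.961 by the edgeR test) and RT1-Da at -0.05 (SE 0.54, adjusted p = 0.988). In ±pim(st/SCI), groups D and C, they were at -0.15 (SE 0.61, adjusted p = 0.976 by the edgeR test) and -0.11 (SE 0.69, adjusted p = 0.983), and at 0.60 and 1.09 without rat 89.

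Neither gene was called in these contrasts. By the edgeR test 0.0% of genes were called in ±st(SCI), 0.0% in ±st(0) and 0.0259% in ±pim(st/SCI). Before adjustment, 475 genes in ±st(SCI) and 1297 in ±st(0) had p under 0.05. DESeq2 called 0, 17 and 32 genes in ±st(SCI), ±st(0) and ±pim(st/SCI), and the exact test of edgeR on the groups of each contrast alone called 35, 24 and 73, in each case without Cd74 or RT1-Da. The difference between the effects of stimulation in injured and in intact rats, tested as an interaction, was 0.18 (SE 0.71, adjusted p over 0.99 by the edgeR test) for Cd74 and 0.12 (SE 0.82, adjusted p over 0.99) for RT1-Da on the log2 scale.

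The spread between rats of one group was among the largest of the genes tested. Pooled within the 5 groups, the SD of log2(CPM + 0.1) was 0.776 for Cd74 and 0.919 for RT1-Da, against a median of 0.193 over 15460 genes, and 96.9% and 98.3% of genes had a smaller SD. Among genes whose mean CPM was within a factor of 2, the median SD was 0.136 for the 4792 near Cd74 and 0.167 for the 5220 near RT1-Da, and 99.8% and 99.7% of them had a smaller SD. Cd74 had 243 to 1455 counts in a rat and RT1-Da 59 to 720, so that counting alone gives an error of 6.42% to 2.62% for Cd74 and 13.02% to 3.73% for RT1-Da. In whole tissue, more cells that express a gene and more RNA of it per cell cannot be told apart.

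**Figure D3:**
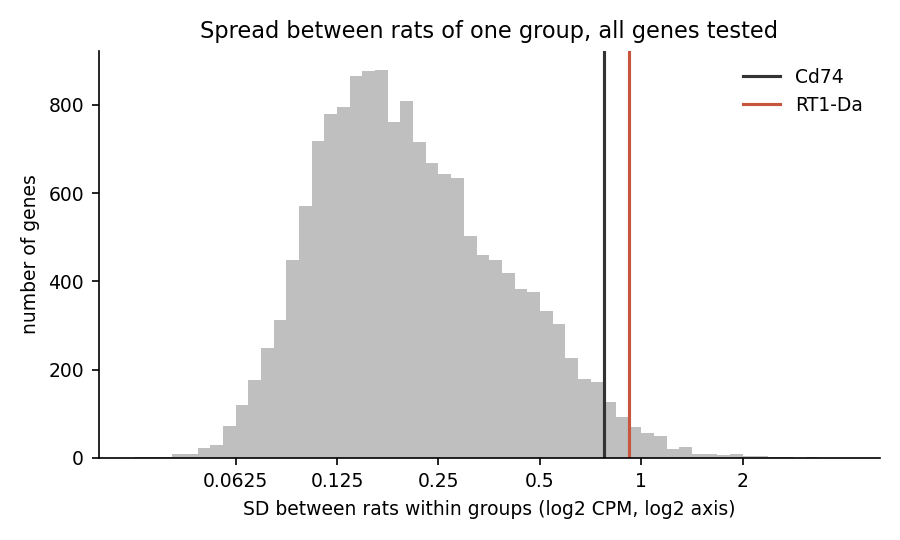
Number of genes, among the 15460 tested, by the SD of log2(CPM + 0.1) between rats of one group, pooled over the 5 groups, on a log2 axis. Cd74 (0.776, black line) and RT1-Da (0.919, red line) lie in the right tail.

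The 2 genes varied together from rat to rat, in intact and in injured cords alike. Among the 9 intact rats, log2 levels of Cd74 and RT1-Da correlated with Pearson's r = 0.981 (p = 1.65e-05, exact permutation test) and Spearman's rho = 0.983 (p = 4.96e-05, exact permutation test). Without rats 70 and 87, the farthest from the median, r was 0.97. Among the 8 injured rats, r was 0.959 (p = 0.000223, exact permutation test) and rho 0.929 (p = 0.00223, exact permutation test), and without rats 89 and 94 r was 0.901. Adjusted over these 4 tests the p-values ran from 6.61e-05 to 0.00223. The order of the 17 rats was close to the same for both genes: rats 69, 86 and 82 were the 3 lowest and rats 94 and 89 the 2 highest in each. The genes lie on different chromosomes, but the 2 values of a rat come from the same library and share its depth and its scaling.

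**Figure D4:**
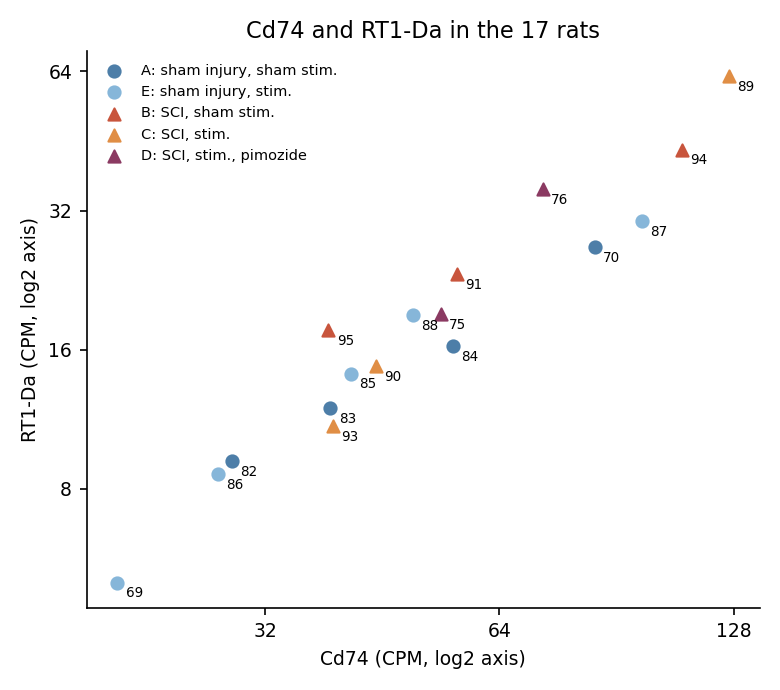
RT1-Da against Cd74 in the 17 rats, both in CPM on log2 axes, with circles for intact and triangles for injured rats and rat numbers beside them. The points form 1 band from rat 69 (20.6 and 5.01 CPM) to rat 89 (126 and 62.5 CPM), with intact rats 87 and 70 in its upper part.

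The genes closest in profile were the same for both. The profile of each gene over the 17 rats, as log2(CPM + 0.1) centered on its mean, was compared with those of the 14514 other genes that averaged 1 CPM or more by the root mean square (RMS) difference. For Cd74 the most similar was ENSRNOG00000000451, with an RMS difference of 0.252, followed by ENSRNOG00000033215 (0.256) and RT1-Da (0.277). For RT1-Da the most similar was ENSRNOG00000033215 (0.184), followed by Cd74 (0.277) and ENSRNOG00000000451 (0.279). The median gene differed by 0.745 from Cd74 and by 0.918 from RT1-Da, near the 0.701 and 0.882 that a gene of constant level would give, so that the measure depends on the size of the differences between rats as well as on their order. The same 2 unnamed rows had ranks 4 and 5 in both orders, with RMS differences of 0.402 and 0.477 for Cd74 and 0.334 and 0.527 for RT1-Da, so that each of the 2 genes had its partner and the same 4 further rows as the closest 5. After the group means were taken out, the correlation of Cd74 with RT1-Da over the 17 rats was 0.973, the highest of Cd74 with any of the 14514 genes, and ENSRNOG00000033215 and ENSRNOG00000000451 came next at 0.971 and 0.964. For RT1-Da the highest was that with ENSRNOG00000033215, at 0.978, and Cd74 had rank 2. The gene of rank 5 in RMS difference had only rank 75 by this correlation (r = 0.726), so that many more genes ranked above it by correlation than by RMS difference. These are descriptions, chosen for their size. The identifiers ENSRNOG00000000451 (mean 13.6 CPM) and ENSRNOG00000033215 (mean 10.3 CPM) were paired with no symbol in the sources used here, and their log2(FC) in injured against intact rats was 0.77 (adjusted p = 0.0644, edgeR) and 0.68 (adjusted p = 0.146). For the rows of ranks 4 and 5 it was 0.95 (adjusted p = 0.0312, edgeR) and 0.81 (adjusted p = 0.0209), under the limit of 1 for a call.

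The ratio of the 2 genes, in which the scaling of a library cancels, was lower in injured rats when all 17 rats were used, but the adjusted p exceeded 0.05 without any 1 of 6 rats. Counts of Cd74 per count of RT1-Da were 3.19 in rat 70, 3.16 in rat 82, 3.25 in rat 83 and 3.43 in rat 84 of group A, a mean of 3.26 ± 0.121 (SD, n = 4). Group B had 2.43 in rat 91, 2.53 in rat 94 and 2.19 in rat 95, a mean of 2.38 ± 0.174 (SD, n = 3), with no overlap with group A. The ratio was steady within these groups while the levels of both genes varied by 2.46-fold to 2.93-fold between their rats.

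In group C the ratio was 2.02 in rat 89, 3.02 in rat 90 and 3.58 in rat 93, and in group D it was 2.82 in rat 75 and 2.04 in rat 76. Group E had 4.12 in rat 69, 2.91 in rat 85, 3.24 in rat 86, 3.22 in rat 87 and 2.61 in rat 88. Rats 90 and 93 of group C and rat 75 of group D thus lay among the intact rats, and rat 69, with only 59 counts of RT1-Da, was the highest. The counting error of the log2 ratio was from 0.0657 in rat 89 to 0.209 in rat 69.

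Over all rats the log2 ratio was 1.34 ± 0.287 (SD, n = 8) in injured and 1.68 ± 0.172 (SD, n = 9) in intact rats, a difference of -0.34, or a ratio 0.79 times as high. A 2-sided exact permutation test gave p = 0.0102, or 0.0305 after Benjamini-Hochberg adjustment over the 3 permutation tests of injured against intact rats. When single rats were left out, the difference lay between -0.41 and -0.29, the unadjusted p between 0.00114 and 0.0212, and the p adjusted over the same 3 tests between 0.00341 and 0.0637. The adjusted p stayed under 0.05 for 11 of the 17 rats and was above it without rat 84 (0.055), 91 (0.0535), 95 (0.0616), 89 (0.0637), 76 (0.0632) or 69 (0.0611). Without group D the unadjusted p was 0.025 and the adjusted p 0.0749. Among pairs of groups, compared after the values had been seen, B against A gave -0.45 with p = 0.0286 in the exact permutation test and 0.114 after adjustment over 4 pairs. With 3 and 4 rats no smaller unadjusted p is possible. C against B gave 0.23 (p = 0.5), C against E -0.18 (p = 0.464) and E against A -0.04 (p = 0.786), each by an exact permutation test.

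Level and ratio were also compared, as a description. The slope of log2 RT1-Da on log2 Cd74 was 1.08 in intact and 1.24 in injured rats, where a slope above 1 is a lower ratio at a higher level of Cd74, and the part of the level in the lower ratio of injured rats was not tested. Among rats with more than 70 CPM of Cd74, intact rats 70 and 87 had ratios of 3.19 and 3.22 and injured rats 76, 94 and 89 had 2.04, 2.53 and 2.02. From 38.6 to 56.5 CPM the conditions overlapped, with ratios of 2.19, 3.58, 3.02, 2.82 and 2.43 in injured rats 95, 93, 90, 75 and 91 and of 3.25, 2.91, 2.61 and 3.43 in intact rats 83, 85, 88 and 84.

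**Figure D5:**
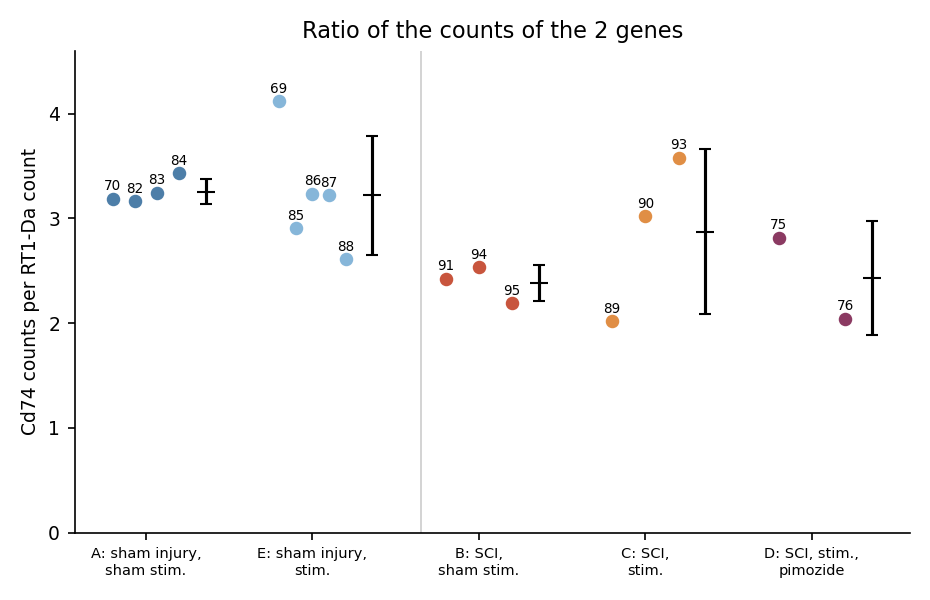
Counts of Cd74 per count of RT1-Da in each rat, by group, on an axis from 0, with rat numbers beside the points and the mean and SD in black. The 4 rats of group A lie between 3.16 and 3.43 and the 3 of group B between 2.19 and 2.53, while groups C, D and E spread over more of the axis.

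The other genes of antigen presentation could be followed only as far as names went. Of 20 lists of pathway and marker genes, 17 had no gene that could be matched to an identifier, among them the lists for class II regulators, peptide processing, costimulation, interferon gamma signaling, MHC class I, microglia, macrophages, dendritic cells, B cells, T cells, neurons, glia and spinal cord, so the labelled tissue and the cells that carry class II were not checked against their markers. Of the 11 class II genes, 2 were matched (Cd74 and RT1-Da), of 10 neutrophil genes 6, and of 10 erythroid genes 10. The neutrophil and erythroid names came from the study's list of genes flagged in ±st(SCI) or ±pim(st/SCI) in these same rats. The matched members are therefore not a sample of either cell type, and its response to injury cannot be judged from them. In the edgeR test 0 of the 6 neutrophil and 0 of the 10 erythroid genes were called in injured against intact rats, 0 had an unadjusted p under 0.05, and DESeq2 called 0, whereas over all genes edgeR called 7.35% and 52.8% had an unadjusted p under 0.05. Their median log2(FC) was 0.27 and -0.14, against -0.03 over all genes.

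The levels of neutrophil and erythroid genes were set beside those of the class II genes rat by rat, and their part in the class II values was not tested. The neutrophil genes of highest mean were S100a9, S100a8, the subunits of calprotectin, and Ngp, a granule protein, and those of the erythroid list were Hba-a1, Hbb and Hba-a2, which encode globins. The summed level of the 6 neutrophil genes was 5.38 to 71.8 CPM (median 25.8) in the intact and 16.1 to 124.8 CPM (median 25.9) in the injured rats. Among the injured rats it stood apart in group C, with 101 CPM in rat 89, 124.8 in rat 90 and 73.0 in rat 93. Groups B and D had 16.06 to 30.04 CPM, and this difference was not tested. The study had flagged these genes as higher in group C than in group B, so the separation follows from how the genes were chosen. The summed level of the 10 erythroid genes was 207 to 1060 CPM (median 599) in the intact and 245 to 1771 CPM (median 390) in the injured rats. Here too group C stood apart, with 611 CPM in rat 89, 827 in rat 90 and 1771 in rat 93, against 245 to 422 CPM in groups B and D. The erythroid genes had been flagged by the study in the same way. The intact rat 70, high in Cd74, had the lowest sums among intact rats, 5.38 CPM of neutrophil and 207 CPM of erythroid genes, whereas rat 87 had the highest neutrophil sum of the intact rats, 71.8 CPM. Of the 16 correlations of Cd74 or RT1-Da with these sums (2 coefficients in each of 2 sets of rats), none passed, with adjusted p from 0.789 to 0.882 by exact permutation tests. Pearson's r of Cd74 with the neutrophil sum was 0.475 in the 9 intact rats, and with the erythroid sum it was -0.22 in the intact and -0.27 in the 8 injured rats. Without the 2 rats farthest from the median of the sum these became 0.903, -0.16 and 0.615, so that the coefficients depended on these rats. In the injured rats r of Cd74 with the neutrophil sum was -0.07, and -0.59 without the 2 farthest rats. No coefficient of the injured rats is read for either sum, because group C stood apart in both.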

How the data were processed

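Per the labels, total RNA of 17 rat spinal cords was made into stranded libraries depleted of ribosomal RNA. The authors trimmed single-end reads of 75 bp with Trim Galore (version 0.4.1 in the submitters' processing notes), aligned them with STAR 2.5.0a and deposited the counts per Ensembl gene from its GeneCounts function, which are whole numbers and not normalized. The processing notes name Rnor_6.0, the methods Rnor_5.0 with Ensembl release 79, and the column of strandedness is not stated. Reads of the polymorphic RT1 genes were aligned to a single reference.

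Totals on genes were 9852873 to 14137717 per rat. Groups were taken from the letter in the titles. That the rats were separate animals is the only replication, and p-values measure the spread between them. Genes kept by filterByExpr (15460) were fitted with glmQLFit of edgeR 4.0.16 in R 4.3.3, with TMM factors and a coefficient for each of the 5 groups, tested with glmQLFTest and adjusted over all genes. SEs are the size of the log2(FC) divided by the square root of F. DESeq2 1.42.0 was an alternative. Permutation tests enumerated every assignment of rats, in Python 3.11.15 with scipy 1.17.1, on log2(CPM + 0.1). The edgeR fit was tested on simulated data.

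The 2 genes, the gene lists and the tests were chosen with earlier results of these data known. The text names both genes, matched list genes and the genes closest in profile. Names come from the study's supplementary list of identifiers (99 matched) and, for the 2 genes, from their identifiers as given. That list holds only genes that the study had flagged in ±st(SCI) or ±pim(st/SCI). The RefSeq table for GRCr8 holds no Ensembl identifiers. Promoters are from RefSeq. Alternatives were DESeq2, the exact test of edgeR, RLE or library totals for scaling, no filter, 1 CPM in 3 rats, robust dispersions, the groups compared alone, a covariate for rats numbered 69 to 76 or 82 to 95, no limit on fold change, a pseudocount of 1 CPM, and each rat left out. The result of 1 further motif search is not reported here.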

Additional observations from a re-analysis of the deposited data

How the results depend on the processing

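Permutation tests are judged here by their unadjusted p unless said otherwise. With all rats kept, every difference of Cd74 and RT1-Da kept its sign and its side of the threshold under each alternative, except the permutation test of RT1-Da in injured against intact rats, whose difference of 0.86 under scaling by total counts gave an unadjusted p of 0.0499 in place of 0.0599. Neither gene was called in any of them. Leaving out each rat in turn turned the sign of 30 values, brought 6 past the threshold, 4 of them by the unadjusted p of a permutation test, and left 180 on the same side; the cause was not tested. Over those fits Cd74 and RT1-Da ranged from -0.13 to 0.73 and 0.37 to 1.18 in ±SCI(0), -0.31 to 0.77 and -0.31 to 1.30 in ±st/SCI(0), -0.17 to 1.01 and -0.25 to 1.35 in ±SCI(st), -0.71 to 0.56 and -1.13 to 0.52 in ±st(SCI), -0.44 to 0.60 and -0.62 to 1.09 in ±pim(st/SCI), -0.58 to 0.20 and -0.44 to 0.30 in ±st(0), and -0.57 to 0.70 and -1.08 to 0.58 in the interaction. Cd74 in injured against intact rats ranged from 0.19 to 0.66, and RT1-Da ranged from 0.46 to 1.05, and 0.63 to 0.99 in the permutation test, where the unadjusted p was under 0.05 without rats 70, 87, 90 or 93 and the p adjusted over 3 tests only without 87 (0.0448) or 93 (0.042). Where a rat of group D was left out, the other was assumed to vary like the rats of the other groups. No paired analysis was possible because no rat number occurs in more than 1 group. The ratio of the 2 genes kept an unadjusted p under 0.05 in each alternative, but the p adjusted over 3 tests was up to 0.0637 with 1 rat left out and 0.0749 without group D. The correlation of the 2 genes, with each rat left out (added after seeing the data), was 0.976 to 0.989 in intact and 0.93 to 0.978 in injured rats.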
